A study of Mus musculus with 3 samples.

Results

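In hippocampal RNA from wild-type and tau-transgenic mice, levels were followed of 10 genes tied to the risk of Alzheimer's disease: Apoe, Clu, Bin1, Picalm, Sorl1, Abca7, Inpp5d, Plcg2, Abi3 and Spi1. They were taken by symbol from the deposited gene table, which holds 54532 genes, and all 10 were found there. The 3 libraries, 1 for each genotype, came from mice aged 10 months on a C57BL/6 background. The WT library carries no transgene by its label, the PS19 library comes from the PS19 tau line, and the library labelled PS19, Zbp1+- (PS19 Zbp1+/- here) comes from that line and is heterozygous for Zbp1 by its label. PS19 mice express a mutant human tau from a transgene under the mouse Prnp promoter. Zbp1 encodes a sensor of Z-form nucleic acids. The labels name neither the sex of the mice nor any pooling, and with 1 library per genotype no difference below has a replicate check and none was tested.

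Variants in or near the human forms of these genes are associated with late-onset Alzheimer's disease, and the genes fall into groups by the brain cells that express them most. Apoe and Clu encode secreted apolipoproteins made mainly by astrocytes, and Apoe is also made by microglia that respond to damage. Inpp5d, Plcg2, Abi3 and Spi1 are expressed in the brain mostly by microglia, the resident macrophages. Bin1, Picalm and Sorl1 act in endocytosis and in the sorting of membrane cargo in neurons and other cells, and Abca7 is a lipid transporter of the ABC family. The grouping used here was therefore 4 microglial genes, 2 astrocytic genes and 4 neuronal or broadly expressed genes.

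The libraries held 16400328 to 17109734 reads, recovered as whole reads from the FPKM values (fragments for each kilobase of a gene and scaled by library size). Below, values given in threes follow the order WT, PS19, PS19 Zbp1+/-. Zbp1 itself had 5, 91 and 0 reads, so the third library is named by its label only. Xist had 11062, 13350 and 0 reads and the Y-linked Ddx3y had 0, 0 and 711, so PS19 Zbp1+/- also stood apart from both other libraries in sex-chromosome transcripts. All 12 neuron markers reached an FPKM of 1 in each library. The 9 choroid plexus markers summed to FPKM values of 3439, 2180 and 26.8. Genotype, sex-chromosome transcripts and choroid plexus content cannot be told apart in the third library.

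The levels of the 10 genes spanned the range from some of the most abundant to weakly expressed mRNAs. In WT the order by FPKM, which is per gene length, was Apoe, Clu, Bin1, Sorl1, Picalm, Abca7, Inpp5d, Spi1, Plcg2 and Abi3. The order was the same in PS19, and in PS19 Zbp1+/- Spi1 and Inpp5d changed places. Counting intervals of neighbours overlapped for Inpp5d and Spi1 and for Spi1 and Plcg2 in WT, for Inpp5d and Spi1 in PS19, and for Spi1 and Inpp5d and for Inpp5d and Plcg2 in PS19 Zbp1+/-. Apoe ranked 13th among protein-coding genes in WT, 10th in PS19 and 13th in PS19 Zbp1+/-. Among these 10 genes, 8 had their highest level in PS19, Bin1 in WT and Sorl1 in PS19 Zbp1+/-. Of all protein-coding genes that entered a comparison, 30.6% were highest in PS19, 29.3% in WT and 40.1% in PS19 Zbp1+/-. After rescaling to the same FPKM sum Bin1 and Sorl1 were also highest in PS19, and so were 49.6% of all these genes.

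**Figure D1:**
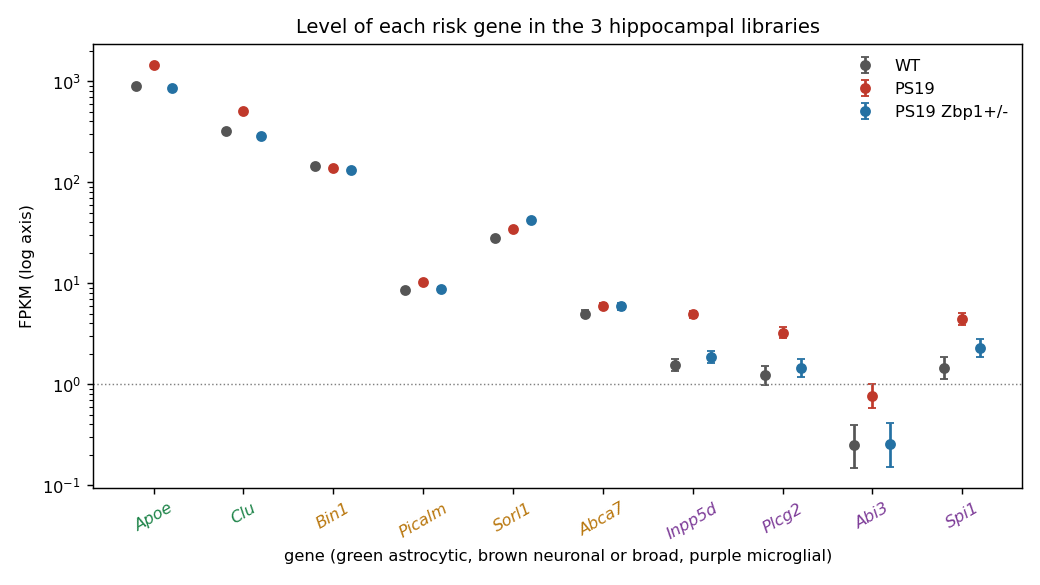
FPKM of the 10 genes (log axis) in WT (grey), PS19 (red) and PS19 Zbp1+/- (blue), 1 library each, with bars for the exact 95% Poisson interval of the read count. Apoe lies between 859 and 1459 and Abi3 below 1 in every library, and the 4 microglial genes at the right have PS19 above both other libraries.

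Between PS19 and WT the microglial genes differed most, the astrocytic genes less, and the neuronal or broad genes least. Ratios of reads per library size ranged from 2.63 (Plcg2) to 3.17 (Inpp5d) for the 4 microglial genes and from 1.59 (Clu) to 1.62 (Apoe) for the astrocytic pair. They ranged from 0.957 (Bin1) to 1.24 (Sorl1) for the other 4 genes, so that the 3 ranges of read ratios did not overlap. On the log2(FPKM + 1) scale Abi3, which did not reach the minimum level in that comparison, was at 0.50 and lay below Apoe, at 0.69. On the log2(FPKM + 1) scale, where a difference of at least 1 counts as 2-fold, 2 of the 9 genes that reached an FPKM of 1 in either library were 2-fold higher in PS19, namely Inpp5d and Spi1, and none was 2-fold lower. Across the 12703 protein-coding genes measured in this way, 2.2% were 2-fold higher and 0.291% were 2-fold lower. That scale understates weakly expressed genes, and by the read ratio 3 of the 9 genes, Plcg2 besides, were at least 2-fold higher, against 4.51% of all genes, and 0 were lower, against 0.96%.

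Between PS19 Zbp1+/- and PS19, a comparison that shares the PS19 library with the first, read ratios gave the same order of groups with the sign turned, but differences of log2(FPKM + 1) did not. Read ratios were 0.338 (Abi3) to 0.517 (Spi1) for the microglial genes, 0.563 (Clu) to 0.589 (Apoe) for the astrocytic pair, and 0.844 (Picalm) to 1.22 (Sorl1) for the rest. On the log2(FPKM + 1) scale the astrocytic median of -0.80 and the microglial one of -0.78 were nearly equal, and Clu (-0.83) lay below Plcg2 (-0.78) and Spi1 (-0.72). On that scale 1 of the 9 genes, Inpp5d, was 2-fold lower, against 5.16% of all genes, and 0 were 2-fold higher, against 2%. By the read ratio 2 of the 9, Inpp5d and Plcg2, were at least 2-fold lower, against 9.65% of all genes, and 0 were higher, against 3.63%. Scaling bears on these shares: after rescaling to the same FPKM sum, 1003 of all genes were 2-fold lower and 118 higher, where 659 and 255 were so as deposited. Apoe and Clu were then 2-fold lower along with Inpp5d, 3 of the 9 genes, against 7.85% of all genes.

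Between PS19 Zbp1+/- and WT the groups overlapped. The microglial ratios ran from 1.03 (Abi3) to 1.56 (Spi1), the astrocytic ones from 0.894 (Clu) to 0.951 (Apoe) and the others from 0.913 (Bin1) to 1.51 (Sorl1). None of the 9 genes was 2-fold higher or lower, where 1.07% of all genes were higher and 2.28% lower (133 and 283 genes, or 76 and 368 after rescaling). By the read ratio the count was also 0, where 2.61% of all genes were higher and 4.78% lower.

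**Figure D2:**
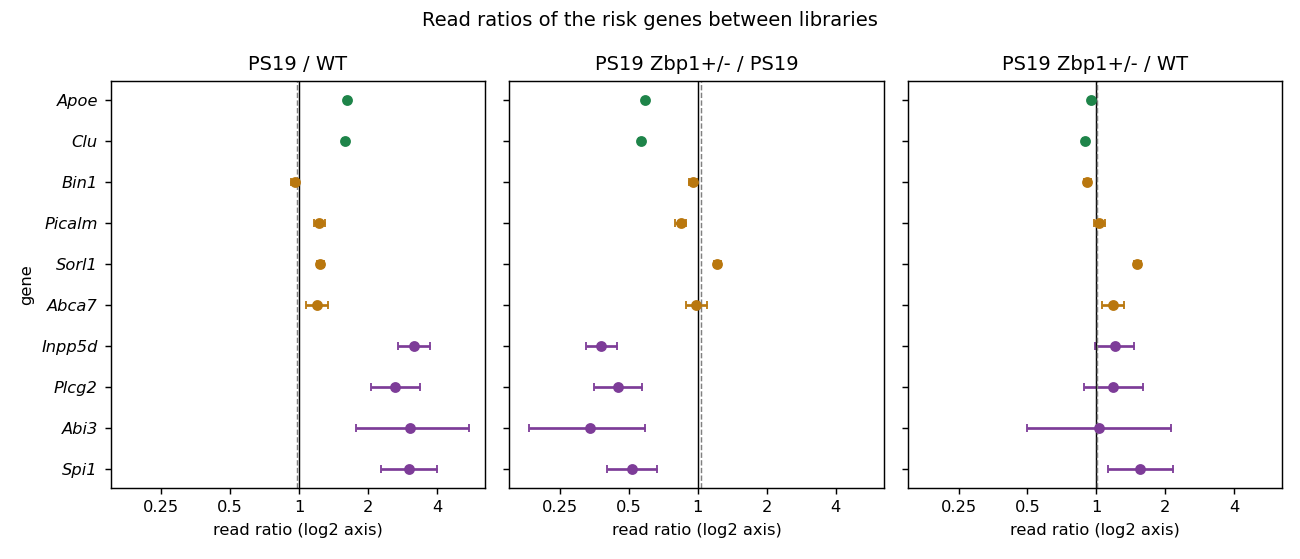
Read ratio per library size (log2 axis) of each gene in the 3 comparisons, with exact 95% Clopper-Pearson intervals that cover counting error only. Green marks astrocytic, brown neuronal or broad and purple microglial genes, and the dashed line is the median of all protein-coding genes tested. The 4 purple points lie between 2.63 and 3.17 at the left and between 0.338 and 0.517 in the middle.

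Counting intervals are a weak filter at this depth. For PS19 over WT, 28.3% of all genes had an interval wholly above 1 and 32.7% wholly below it. Of the 9 genes here, 8 lay above and Bin1 below. In PS19 Zbp1+/- against PS19, 7 of the 9 lay below 1 (32.6% of all genes), Sorl1 above it (39% of all genes), and the interval of Abca7 held 1. Against WT, Sorl1, Abca7 and Spi1 of PS19 Zbp1+/- lay above 1 (35.3% of all genes), Apoe, Clu and Bin1 below (31.3%), and the intervals of Picalm, Inpp5d and Plcg2 held 1. After rescaling to the same FPKM sum the interval of Bin1 lay above 1 for PS19 over WT. Against PS19, the interval of Sorl1 then held 1 and that of Abca7 lay below it. Against WT, the interval of Abca7 held 1 and that of Picalm lay below it.

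Spi1 (ENSMUSG00000002111, chromosome 2, 91082390 to 91115756, plus strand) encodes PU.1, the ETS-family transcription factor that specifies macrophages and microglia. Its FPKM was 1.46, 4.40 and 2.27, from 68, 205 and 97 reads. PS19 was the high library, 3.01-fold above WT (95% interval 2.28 to 4.02), and PS19 Zbp1+/- was at 0.517 of PS19 (0.402 to 0.661). PS19 Zbp1+/- was 1.56-fold above WT, with an interval of 1.13 to 2.15, and Spi1 was the one microglial gene of the 4 whose interval in that comparison left out 1. On the log2(FPKM + 1) scale the 3 differences were 1.13, -0.72 and 0.41.

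Inpp5d (ENSMUSG00000026288, chromosome 1, 87620312 to 87720507, plus strand) encodes SHIP1, a lipid phosphatase that removes a phosphate from PIP3 and so restrains receptor signalling in myeloid cells. FPKM values were 1.55, 4.91 and 1.86, from 203, 645 and 224 reads. PS19 was the high library, at 3.17-fold above WT (2.70 to 3.73), and PS19 Zbp1+/- was at 0.379 of PS19 (0.324 to 0.442). The ratio of PS19 Zbp1+/- over WT was 1.20, with an interval of 0.99 to 1.46 that held 1.

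Plcg2 (ENSMUSG00000034330, chromosome 8, 117498291 to 117635142, plus strand) encodes phospholipase C gamma 2, which acts downstream of TREM2 and Fc receptors in microglia. Levels of 1.23, 3.23 and 1.46 FPKM rested on 91, 240 and 99 reads, with PS19 again the high library. The ratio was 2.63 against WT (2.06 to 3.39), and PS19 Zbp1+/- was at 0.451 of PS19 (0.353 to 0.572). Over WT, PS19 Zbp1+/- stood at 1.19 (0.883 to 1.59), a difference not detectable at this depth.

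Abi3 (ENSMUSG00000018381, chromosome 11, 95830074 to 95842476, minus strand), a subunit of complexes that direct actin assembly, was the weakest of the group and stayed under an FPKM of 1 in every library, so it entered none of the 2-fold or interval counts above. Its 18, 55 and 17 reads gave FPKM values of 0.251, 0.766 and 0.259. The PS19 library was 3.05-fold above WT (1.76 to 5.52), and PS19 Zbp1+/- was at 0.338 of PS19 (0.184 to 0.590). WT and PS19 Zbp1+/- did not differ detectably (ratio 1.03, 0.499 to 2.12). In the GENCODE M21 annotation 70.1% of its exonic bases are also exonic in Zfp652 and 41.1% in Phospho1, both on the opposite strand. Zfp652 had 984, 1219 and 1012 reads and Phospho1 15, 23 and 36. The strand setting of the counting is not given in the sources used here, so the level of Abi3 is uncertain. Zeros in place of low counts were more common in PS19 Zbp1+/-. Of 1167 protein-coding genes with 15 to 60 reads in both other libraries, 41 had none there (3.51%). The same count was 0 of 1062 for PS19 and 0 of 875 for WT. The reason for these zeros was not tested.

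Markers of microglia, as a group, differed in the same direction as these 4 genes. Of the 15 microglia markers, 8 were 2-fold higher in PS19 than in WT (2.2% of all genes), with a median difference of 1.25 against -0.03 over all genes. Against PS19 the third library had 9 of them 2-fold lower (5.16% of all genes), with a median of -1.02 against 0.04. Their FPKM summed to 197, 680 and 215, and no marker was at 0 in any library. On the scale of log2 read ratios, PS19 over WT, the marker median was 1.47, and the microglial risk genes lay close to it: Inpp5d was 0.20 above, Abi3 0.14 above, Spi1 0.12 above, and Plcg2 differed by -0.07. The markers themselves ran from -0.15 (P2ry12) to 2.90 (Fcrls), with Tmem119 at 0.17, a wider spread than that of the 4 genes. In PS19 Zbp1+/- over PS19 the marker median was -1.08, from which Spi1 differed by 0.13, Plcg2 by -0.07, Inpp5d by -0.31 and Abi3 by -0.48. For PS19 Zbp1+/- over WT the marker median was 0.12, and Spi1 lay 0.51 above it, with 2 of 15 markers higher than Spi1. As a difference of log2(FPKM + 1) that marker median was 0.10, and -0.027 after rescaling. Summed over the 4 genes, their FPKM was 2.28%, 1.96% and 2.72% of the summed marker FPKM. The part of microglial numbers in these levels was not tested. In bulk tissue, fewer cells of a type and less RNA per cell cannot be told apart.

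Markers of other immune cells were scarce. The 7 monocyte and neutrophil markers summed to 26, 79 and 4 reads, the 8 lymphocyte markers to 23, 50 and 12, and the 6 perivascular macrophage markers to 215, 298 and 34. In PS19 Zbp1+/- 5 of the 7 monocyte and neutrophil markers and 7 of the 8 lymphocyte markers were at 0 reads. The part of these cells in the levels of the 4 genes was not tested.

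The first 250 bases before the start of 6 of the 10 genes could be read from RefSeq (GRCm38.p6), with start sites as RefSeq gives them: Inpp5d, Plcg2, Apoe, Sorl1, Picalm and Abca7. The windows of 4 genes are printed, 5′ to 3′ on the strand of the gene: the microglial pair Inpp5d and Plcg2, which were high together in PS19, the most abundant gene Apoe, and Sorl1, whose pattern differed from theirs. Capitals mark matches on either strand to GAGGAAGT, a sequence bound by PU.1, or to CACGTG, an E-box that reads the same on both strands. Both motifs were chosen after the sequences had been seen.
Inpp5d, chr1:87620062-87620311, plus strand: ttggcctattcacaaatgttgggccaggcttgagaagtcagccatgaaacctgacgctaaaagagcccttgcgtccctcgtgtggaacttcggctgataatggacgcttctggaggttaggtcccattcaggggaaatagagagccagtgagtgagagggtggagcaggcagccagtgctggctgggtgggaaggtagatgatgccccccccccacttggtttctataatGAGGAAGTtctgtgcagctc
Plcg2, chr8:117498025-117498274, plus strand: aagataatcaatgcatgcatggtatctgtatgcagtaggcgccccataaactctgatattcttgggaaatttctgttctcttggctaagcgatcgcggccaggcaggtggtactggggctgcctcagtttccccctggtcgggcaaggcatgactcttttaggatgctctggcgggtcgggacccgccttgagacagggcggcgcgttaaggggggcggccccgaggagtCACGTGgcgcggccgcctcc
Apoe, chr7:19699189-19699438, minus strand: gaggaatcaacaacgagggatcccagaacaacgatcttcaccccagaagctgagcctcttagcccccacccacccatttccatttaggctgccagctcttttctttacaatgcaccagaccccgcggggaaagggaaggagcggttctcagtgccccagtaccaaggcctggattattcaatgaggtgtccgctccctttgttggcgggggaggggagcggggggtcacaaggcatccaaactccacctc
Sorl1, chr9:42124298-42124547, minus strand: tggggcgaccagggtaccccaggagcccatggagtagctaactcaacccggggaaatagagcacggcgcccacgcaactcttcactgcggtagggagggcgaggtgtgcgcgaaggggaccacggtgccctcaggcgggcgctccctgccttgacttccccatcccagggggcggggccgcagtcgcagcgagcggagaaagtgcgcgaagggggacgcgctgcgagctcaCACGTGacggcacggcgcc
The Inpp5d sequence holds GAGGAAGT, with its first base 20 bases before the start site. This motif is present in the same window of 2.44% of 32851 start sites and in none of the other windows of these 6 genes. CACGTG begins 20 bases before the start of Plcg2, 19 before that of Sorl1 and 191 before that of Picalm, and 6.02% of all start sites hold it. The interferon-stimulated response element (held by 2.98% of start sites) and the DR4 repeat bound by LXR (0.0152%), also searched on both strands and chosen in the same way, were not matched in any window of the 6 genes. A match is a run of letters and was not tested as a binding site.

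Apoe (ENSMUSG00000002985, chromosome 7, 19696109 to 19699188, minus strand) encodes the main lipid carrier of the brain. Its 33308, 53912 and 29062 reads gave FPKM values of 903, 1459 and 859. PS19 was 1.62-fold above WT (1.59 to 1.64), and PS19 Zbp1+/- was at 0.589 of PS19 (0.580 to 0.597) and at 0.951 of WT (0.936 to 0.966). PS19 was the high library. After rescaling to the same FPKM sum the log2 difference between PS19 Zbp1+/- and PS19 went from -0.76 to -1.05, past 2-fold, and that between PS19 Zbp1+/- and WT from -0.07 to -0.23. Apoe made up 0.325%, 0.574% and 0.277% of the FPKM sum of all genes.

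Clu (ENSMUSG00000022037, chromosome 14, 65968483 to 65981547, plus strand), which encodes the secreted chaperone clusterin, had the same order of libraries. Its 18861, 30041 and 15476 reads gave FPKM values of 318, 506 and 284. PS19 was 1.59-fold above WT (1.56 to 1.62), and PS19 Zbp1+/- was at 0.563 of PS19 (0.552 to 0.574) and at 0.894 of WT (0.876 to 0.914). Rescaling took the log2 difference between PS19 Zbp1+/- and PS19 from -0.83 to -1.11, also past 2-fold, and that over WT from -0.16 to -0.32.

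The 12 astrocyte markers differed in the same direction as this pair. Their median difference of log2(FPKM + 1) was 0.56 for PS19 minus WT, with all 12 higher, and -0.59 for PS19 Zbp1+/- minus PS19, with 11 of 12 lower. In log2 read ratios, PS19 over WT, Apoe lay 0.13 and Clu 0.10 above the marker median of 0.57. Gfap, the intermediate filament of reactive astrocytes, stood highest at 2.96, with 7159, 55995 and 7509 reads. Apoe and Clu together had a summed FPKM equal to 160%, 113% and 128% of that of the 12 markers, whose sums were 761, 1732 and 895. Microglia markers, given above, differed the same way, and Clu is also expressed in choroid plexus, whose markers were low in PS19 Zbp1+/-. The part of either cell type in the levels of Apoe and Clu was not tested.

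**Figure D3:**
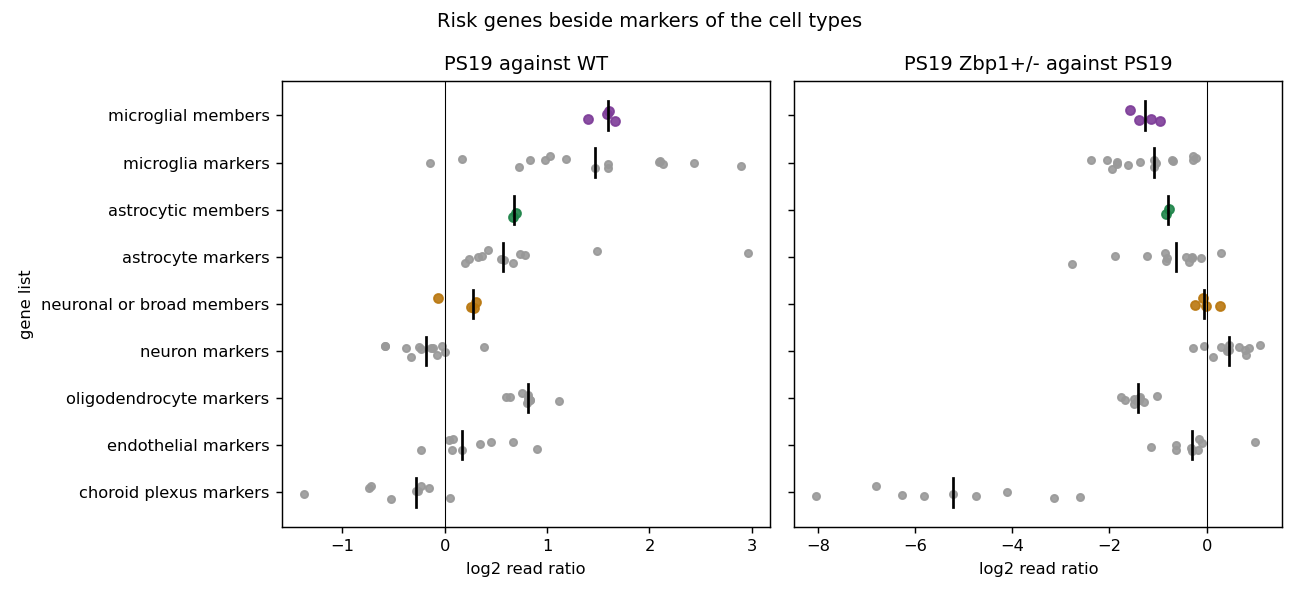
Log2 read ratios of the risk genes (coloured) and of cell type markers (grey), 1 point per gene, with a black bar at the median of all genes of the list. The x axes of the panels differ. Microglial genes sit within the range of the microglia markers in both panels, with medians of 1.60 and -1.27, and the 9 choroid plexus markers have a median of -5.21 at the right.

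Genes that work with the lipoproteins, from a list of 21, differed less as a group. Of 20 that reached the minimum level, 2 were 2-fold higher in PS19 than in WT, Abca1 and Apod, against 2.2% of all genes. None was 2-fold lower, against 0.291%, and the median difference was 0.21. Abca1, which loads lipid onto Apoe, had 842, 2523 and 576 reads. Apod, another lipid-binding apolipoprotein, had 2912, 6591 and 1459 reads. Lrp1, which encodes an Apoe receptor, had 8494, 13314 and 14215 reads and was above WT in both PS19 libraries. In PS19 Zbp1+/- minus PS19, 3 of the 20 were 2-fold lower, Apod, Abca1 and Apoc1, against 5.16% of all genes. Apoc1, at an FPKM of 1.55 in PS19 and 0.255 in PS19 Zbp1+/-, reached the minimum level only through PS19. The list median was -0.07 against 0.04 over all genes (-0.33 and -0.20 after rescaling).

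Of 5 measured genes next to Apoe on chromosome 7, 4 were lower in PS19 than in WT as deposited and 2 after rescaling to the same FPKM sum, where 53.7% of all genes were lower as deposited. Tomm40 had 1207, 955 and 1177 reads, and Clptm1 had 3167, 3054 and 3651. Apoc1, an apolipoprotein gene of the same cluster, had 12, 20 and 3 reads and reached the minimum level only through PS19. Apoc2 had 0 reads in each library. The median of the 5 was -0.05 for PS19 minus WT, near the -0.03 of all genes, and 0.071 after rescaling. It was 0.37 for PS19 Zbp1+/- minus PS19, and 0.096 after rescaling.

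Bin1 (ENSMUSG00000024381, chromosome 18, 32377217 to 32435736, plus strand), a membrane-bending adaptor of endocytosis, had the smallest ratio of highest to lowest deposited FPKM among the 10 genes. Its 6050, 5802 and 5065 reads gave FPKM values of 143, 137 and 131. PS19 was at 0.957 of WT (0.923 to 0.992), and PS19 Zbp1+/- was at 0.954 of PS19 (0.918 to 0.99). The log2 difference of -0.06 between PS19 and WT was 0.06 when libraries were rescaled to the same FPKM sum, so its direction there depends on the scaling. The same rescaling took the difference between PS19 Zbp1+/- and PS19 from -0.07 to -0.35 (-0.26 with total reads) and that between PS19 Zbp1+/- and WT from -0.13 to -0.29. Bin1 is also made by oligodendrocytes, and the 10 oligodendrocyte markers were 0.81 (median log2 read ratio) higher in PS19 than in WT and differed by -1.42 between PS19 Zbp1+/- and PS19. Bin1 lay below all 10 of them in the first comparison and above all 10 in the second, where it was at -0.07. The part of oligodendrocytes in its level was not tested.

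Sorl1 (ENSMUSG00000049313, chromosome 9, 41964720 to 42124297, minus strand) encodes a sorting receptor that returns cargo such as the amyloid precursor protein from endosomes, and it was the one gene of the 10 whose deposited FPKM was highest in PS19 Zbp1+/-. FPKM values were 27.8, 34.5 and 42.0, from 5439, 6747 and 7521 reads. PS19 was 1.24-fold above WT (1.19 to 1.28), and PS19 Zbp1+/- was 1.22-fold above PS19 (1.18 to 1.26) and 1.51-fold above WT (1.46 to 1.56). Rescaling to the same FPKM sum took its log2 difference between PS19 Zbp1+/- and PS19 from 0.28 to -0.0017, while that over WT was 0.42 at its lowest. Against the median gene of each comparison, Sorl1 was 0.34 higher in PS19 than in WT, 0.23 higher in PS19 Zbp1+/- than in PS19 and 0.58 higher in PS19 Zbp1+/- than in WT. The 12 neuron markers had a median log2 read ratio of -0.19 for PS19 over WT, 0.46 for PS19 Zbp1+/- over PS19 and 0.26 for PS19 Zbp1+/- over WT. As differences of log2(FPKM + 1) these medians were -0.19, 0.45 and 0.26, and -0.058, 0.17 and 0.10 after rescaling.

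Picalm (ENSMUSG00000039361, chromosome 7, 90130213 to 90213465, plus strand), a clathrin adaptor, had 2304, 2821 and 2179 reads, or FPKM values of 8.49, 10.4 and 8.75. PS19 was 1.22-fold above WT (1.16 to 1.29) and PS19 Zbp1+/- was at 0.844 of PS19 (0.797 to 0.893). Between PS19 Zbp1+/- and WT the ratio of 1.03 had an interval that held 1 (0.972 to 1.09), and the sign of the log2 difference turned under rescaling to the same FPKM sum (0.04 to -0.10).

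Abca7 (ENSMUSG00000035722, chromosome 10, 79996494 to 80015572, plus strand) had 580, 696 and 629 reads, or FPKM values of 4.98, 5.96 and 5.89. Both PS19 libraries were above WT, at 1.20-fold (1.07 to 1.34) and 1.18-fold (1.05 to 1.33), and PS19 Zbp1+/- was at 0.987 of PS19 (0.885 to 1.10). These values depended on the scaling: after rescaling to the same FPKM sum PS19 Zbp1+/- was at 0.810 of PS19, with an interval of 0.726 to 0.903 that left out 1, and at 1.06 of WT, with an interval of 0.945 to 1.19 that held it. Bin1, Picalm, Sorl1 and Abca7 all lay above the neuron marker median in PS19 minus WT and below it in PS19 Zbp1+/- minus PS19.

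The 26 endocytic and sorting partners of Bin1, Picalm and Sorl1 stayed within 2-fold in all 3 comparisons. Their median difference was -0.11 for PS19 minus WT, with 20 of 26 lower, and 0.19 for PS19 Zbp1+/- minus PS19, with 19 of 26 higher, where 53.7% of all genes were lower in the first comparison and 53.7% higher in the second. Neither direction held after rescaling to the same FPKM sum, with medians of 0.016 and -0.089 and with 13 of 26 lower and 12 of 26 higher. Ap2b1, a subunit of the AP2 clathrin adaptor, had 7236, 6599 and 10591 reads. Dnm2, the broadly expressed dynamin, ran the other way with 1146, 1701 and 1079 reads. Vps35, the core of the retromer that binds Sorl1, had 2903, 2567 and 2384 reads.

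Signalling partners of Plcg2 and Inpp5d were set apart more widely. Of 19 measured of 21, 8 were 2-fold higher in PS19 than in WT, against 2.2% of all genes, and 0 lower. Their median difference was 0.93. Of the 21, 9 reached an FPKM of 1 in WT and 19 in PS19, so part of the list was measured only through PS19. Tyrobp, the adaptor of TREM2, was highest at 2.06, with 131, 582 and 114 reads. Nckap1l, which works in the same actin-regulating complex family as Abi3, had 121, 558 and 202 reads. Syk, the kinase upstream of Plcg2, had 72, 194 and 65 reads. Between PS19 Zbp1+/- and PS19, 8 of 19 were 2-fold lower, against 5.16% of all genes, led by Prkcd at -3.16 (780, 2211 and 148 reads). As deposited 4 of the 19 were higher, Pik3cd at 0.44 and Akt1 at 0.25 among them, and after rescaling to the same FPKM sum 1 was higher.

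Among 13 transcription factors that act with PU.1, 3 of 11 measured were 2-fold higher in PS19 than in WT, against 2.2% of all genes. They included Irf8 and Ikzf1, which at an FPKM of 0.805 and 0.542 in WT reached the minimum level only through PS19. Irf8, the closest partner of PU.1 in microglia, had 98, 487 and 124 reads. Runx1 had 17, 105 and 21 reads, under the minimum level. Mef2c, which neurons also express, had 1912, 1721 and 1385 reads. The list median was 0.51 for PS19 minus WT and -0.52 for PS19 Zbp1+/- minus PS19.

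Close relatives of the risk genes, most of them expressed in other cells, gave a contrast within families. Plcg1, the broadly expressed phospholipase, had 1495, 1584 and 1629 reads; PS19 stood at 1.06 of WT where Plcg2 stood at 2.63. Inppl1, which encodes SHIP2, had 493, 729 and 429 reads and a ratio of 1.48 where Inpp5d had 3.17. Abi1 and Abi2 were at 0.874 and 0.763 where Abi3 was at 3.05. In the Bin1 family the order was reversed: Bin2, the amphiphysin of myeloid cells, had 62, 145 and 60 reads, while the neuronal Amph had 3870, 3335 and 4396. Snap91, the neuronal paralog of Picalm, had 7098, 5953 and 7386 reads, lowest in the library where Picalm was highest. Of the Sorl1 relatives, Sort1 (9400, 10648 and 11131 reads) and Sorcs2 (738, 1126 and 1737 reads) had its order of libraries as deposited. Sorcs1 (246, 328 and 220 reads) and Sorcs3 (671, 642 and 890 reads) did not. Of the Abca7 relatives, Abca3 had the order of Sorl1 too (1214, 1844 and 2432 reads), while Abca4 was low in PS19 Zbp1+/- only (442, 410 and 15 reads). Abca1 and Abca2 (5041, 8511 and 7438 reads for Abca2) were highest in PS19, as Abca7 was. Abca1 differed far more than Abca7, with log2 read ratios of 1.58 for PS19 over WT and -2.00 for PS19 Zbp1+/- over PS19. Of the PU.1 relatives, Spib had 1, 4 and 0 reads and Spic 0 in each library.

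**Figure D4:**
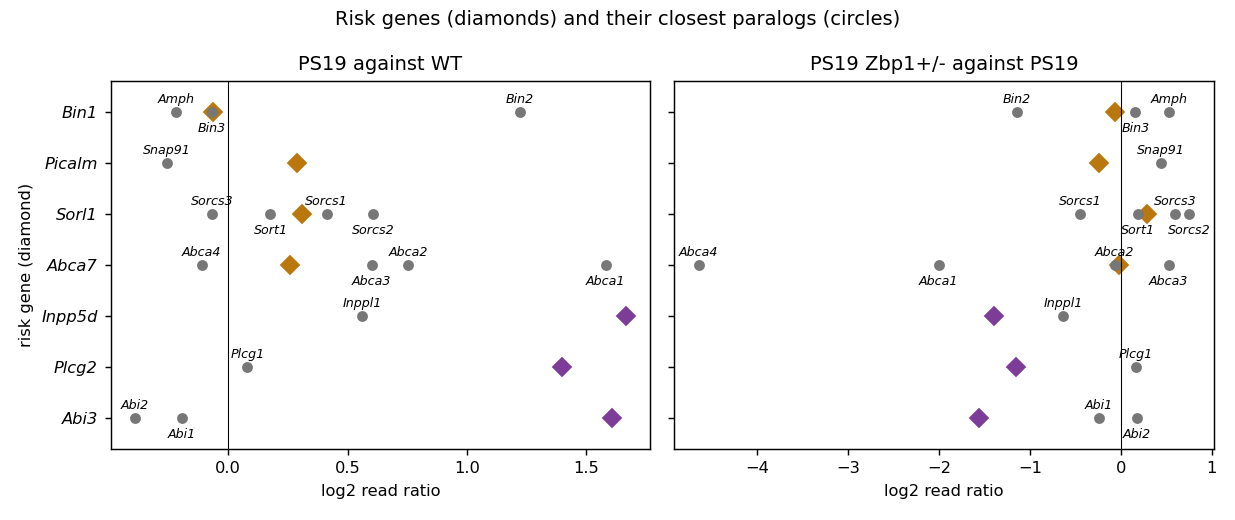
Log2 read ratios of 7 risk genes (diamonds, coloured by group) and of their closest paralogs (grey circles) for PS19 against WT (left) and PS19 Zbp1+/- against PS19 (right), with x axes that differ. The diamonds of Inpp5d, Plcg2 and Abi3 stand apart from their paralogs in both panels, and Bin2, not Bin1, is far from 0 in its family.

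Other genes at Alzheimer risk loci, a list of 44, mostly differed by less than 2-fold. Between PS19 and WT, 35 reached the minimum level in either library. Of these, 4 (11.4%, against 2.2% of all genes) were 2-fold higher and 31 were within 2-fold, with a median difference of 0.18. The 4 were Trem2 (206, 1066 and 229 reads), Cd33 (111, 412 and 82 reads), Ms4a6d (15, 65 and 6 reads) and Ctsh (180, 456 and 62 reads). The first 3 encode myeloid surface proteins and Ctsh a lysosomal protease. Cd33 and Ms4a6d, at an FPKM of 0.828 and 0.501 in WT, reached the minimum level only through PS19. Between PS19 Zbp1+/- and PS19 these 4 and also Blnk and Ace were 2-fold lower, 6 of 35 (17.1%, against 5.16% of all genes). Among them Cd33, Ms4a6d, Ctsh and Blnk reached the minimum level in that comparison only through PS19. Ace, the angiotensin-converting enzyme, had 1665, 1791 and 269 reads, low in PS19 Zbp1+/- only. The 9 choroid plexus markers were lowest there too, with a median difference of -3.78 for PS19 Zbp1+/- minus WT. For PS19 minus WT their median was -0.26, with 8 of the 9 lower. The part of choroid plexus in the level of Ace was not tested. App, the amyloid precursor gene, had 25360, 27889 and 28792 reads. Slc24a4, an ion exchanger, was the 1 locus 2-fold higher in PS19 Zbp1+/- than in WT, with 324, 501 and 686 reads, the order of libraries seen for Sorl1, and 0 loci were so after rescaling. Grn, which encodes progranulin, had 1193, 2402 and 1277 reads and lay just under the threshold at 0.97.

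**Figure D5:**
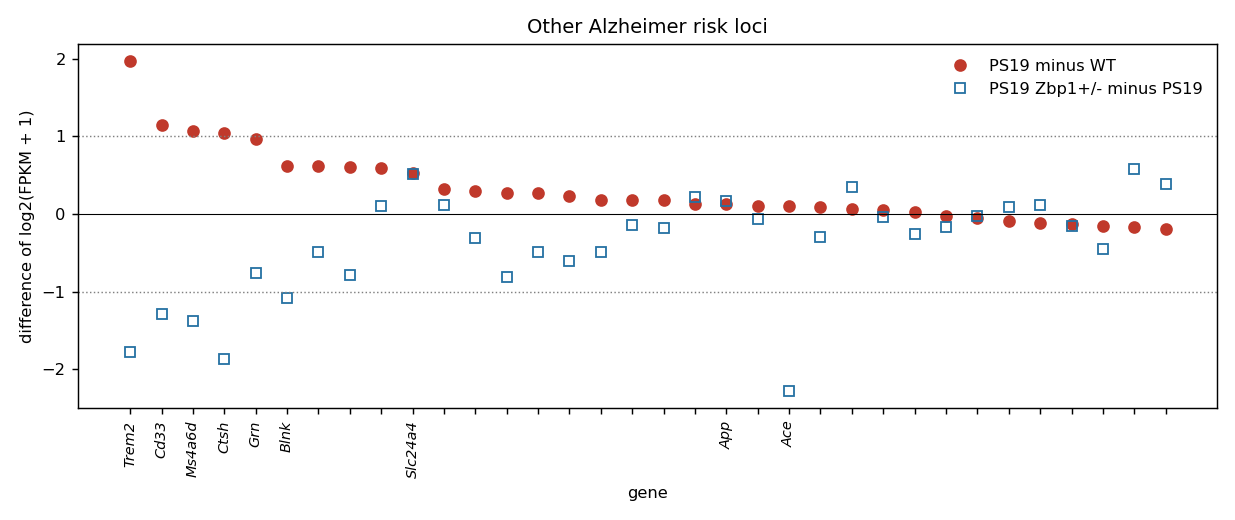
Difference of log2(FPKM + 1) for 34 of the 35 other genes measured at Alzheimer risk loci, ordered by PS19 minus WT (red circles), with PS19 Zbp1+/- minus PS19 as blue squares. The PS19 library is part of both differences. Names are given for the genes described in the text. Dotted lines mark 2-fold, and Trem2 at 1.98 and Ace at -2.29 are the extremes.

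Genes with the pattern most like that of each risk gene were sought among 13132 protein-coding genes by the distance between centred log2 levels over the 3 libraries, which is a description over only 3 points. Among the 3 nearest to Inpp5d were Ikbke and Gna15, with distances of 0.047 and 0.055. Abi3 lay nearest to the microglia marker Aif1 (0.042), Plcg2 to Trim25, Vsir and Plau, and Spi1 to Tap1, Hcls1 and Hhex. Few genes were so close: 5 lay within 0.1 of Spi1, 6 of Abi3, 10 of Inpp5d and 13 of Plcg2. Around Apoe and Clu there were 79 and 81 such genes, with Zc3h11a, Smpdl3b and Frem2 nearest to Apoe and Nrros, Mtbp and P2rx4 nearest to Clu. Around Bin1 there were 777. On the log2 scale, the counting intervals given above for the ratios of Spi1, Abi3, Inpp5d and Plcg2 are wider than 0.1. Abi3 itself, with 18, 55 and 17 reads, was below the minimum of 100 reads, and Hhex had 22, 62 and 30. The genes named as nearest to these microglial genes, and the counts within 0.1, are therefore not resolved from counting error.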

How the data were processed

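The authors deposited 1 table of FPKM values, with a column for each sample, covering 54532 genes with their names, positions and lengths; the unit is taken from the table's name and its values. The submitters' processing notes name Trim Galore 0.6.5, STAR 2.5.3a, featureCounts 2.0.4 and the build mm39, with no role or order. Gene positions equal those of GENCODE M21 (GRCm38) for 98.3% of 54409 matched IDs and for 9 of the 10 genes, the exception being Bin1. Positions printed are those of the table. The strand setting and the scaling step are not given in the sources used here.

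Whole reads were recovered as FPKM times gene length over the value of 1 read, and 100% of values were whole within 0.01. Totals were 16746085 (WT), 16400328 (PS19) and 17109734 (PS19 Zbp1+/-), and the implied library sizes 17253479, 17287957 and 15826984. The measures were the difference of log2(FPKM + 1), over protein-coding genes that reached an FPKM of 1 in 1 or both of the libraries compared, and the read ratio per implied library size and its 95% interval (exact, Clopper-Pearson). For log2 read ratios, reads were set to at least 3. Intervals cover counting error only: the reads carry no molecular identifiers, so PCR copies count as separate reads. With 1 library per genotype no p-value was computed. The procedure was tested on simulated data that held counting error only, which cannot show how mice of 1 genotype vary. Some weakly expressed genes set to differ by 4-fold were missed there.

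The 10 genes, their groups and the 16 gene lists (234 genes) were chosen with earlier results of these data known. The genes named are the 10, list members, and the 3 nearest patterns among genes with at least 100 reads; list members were picked for their role or as the extremes of their list, some after their values had been seen. A few list members are not reported here. Promoter windows came from RefSeq (GRCm38.p6). Alternatives were pseudocounts of 0.1 and 0.5, no filter, a minimum mean FPKM of 5, a minimum of 50 reads, rescaling to the same FPKM sum (TPM), total reads, read ratios, thresholds of 1.5-fold and 4-fold, and the mean. Computations used scipy 1.17.1, numpy 2.4.6 and pandas 2.3.3 under Python 3.11.15, and plots matplotlib 3.10.9.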

Additional observations from a re-analysis of the deposited data

How the results depend on the processing

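Of 30 differences (10 genes in 3 comparisons), 26 kept their direction under rescaling to the same FPKM sum and under total reads, and 4 did not. The 4 were Bin1 for PS19 minus WT, Sorl1 for PS19 Zbp1+/- minus PS19, and Picalm and Abi3 for PS19 Zbp1+/- minus WT. The other alternatives keep the direction of a single gene by construction, so they are no check on it. Rescaling to the same FPKM sum shifted the all-gene median from -0.03 to 0.08 for PS19 minus WT, from 0.04 to -0.20 for PS19 Zbp1+/- minus PS19 and from 0.01 to -0.12 for PS19 Zbp1+/- minus WT; scaling by total reads moved them to 0.0022, -0.12 and -0.12. Counts over all genes depended on the threshold and scale. Those higher in PS19 than in WT numbered 280, and from 37 (4-fold) to 806 (1.5-fold); those lower numbered 37, and from 2 to 344. In PS19 Zbp1+/- minus PS19 the 255 higher ranged from 10 to 1197 and the 659 lower from 104 to 1544. In PS19 Zbp1+/- minus WT the 133 higher ranged from 7 to 834 and the 283 lower from 53 to 886.

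The 2 genes 2-fold higher in PS19 than in WT became 0 with a mean FPKM of at least 5 (6 genes left; 1.32% of all genes higher at that setting), 5 at a threshold of 1.5-fold (6.34%) and 0 at 4-fold (0.291%). It was 3 with pseudocounts of 0.1 (4.26%) and 0.5 (3.06%), after rescaling (2.73%) and as read ratios (4.51%). The 1 gene that was 2-fold lower in PS19 Zbp1+/- (against PS19) became 2 with a pseudocount of 0.1 (9.27% of all genes lower), with total reads (6.69%) and as read ratios (9.65%), 3 after rescaling (7.85%), 5 at 1.5-fold (12.1%), and 0 at 4-fold (0.814%) and with a mean FPKM of at least 5 (3.11%). The microglial median, over the 3 genes that passed the minimum, was 1.13 for PS19 minus WT, 1.53 with a pseudocount of 0.1, 1.59 as read ratios and 1.03 over all 4 genes with no filter. For PS19 Zbp1+/- minus PS19 it was -0.78, and -1.15 as read ratios. The microglial median had no value with a mean FPKM of at least 5, which no microglial gene reached. The median of the other 6 genes for PS19 minus WT was 0.28, 0.35 as a mean and 0.40 after rescaling. For PS19 Zbp1+/- minus PS19 it was -0.14, and -0.27 as a mean, -0.42 after rescaling and -0.32 with total reads. For PS19 Zbp1+/- minus WT it was -0.016, and 0.076, -0.17 and -0.16 in the same order. Rescaling of gene lists and of intervals was added after seeing the data. No paired analysis was possible because each genotype has 1 library. The cause of these shifts was not tested beyond what each alternative changes.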
